A study of Mus musculus with 9 samples.

Results

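The genes described are 10 growth factor receptor and ligand genes, Pdgfra, Pdgfrb, Kit, Kdr, Fgfr1, Fgfr2, Egfr, Met, Fgf2 and Fgf7, of 21853 protein-coding mouse genes in GENCODE release 21. They were chosen by name, and every peak that overlapped a gene body or the 50 kb on either side of it was taken from the 6 replicate and 2 pooled peak lists (genome build GRCm38). The study profiled primary muscle cells from the oviduct of wild-type mice aged 8 to 12 weeks on Day 2 of pregnancy. The tissue was dissociated with enzymes and the cells that adhered in culture were used. Chromatin was cut next to antibody-bound nucleosomes (ChIC-seq), with 3 libraries for H3K27ac, 3 for H3K4me1 and 3 for IgG. No treated or mutant group was present, so the comparison made was between the 2 marks at the same loci. The IgG libraries have no peak list and entered only as the background of each call. The labels do not say whether libraries of 1 mark came from separate animals or cultures, so the p-values measure the spread between these libraries.

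H3K27ac, acetylation of lysine 27 on histone H3, marks active promoters and enhancers, and H3K4me1, methylation of lysine 4 with a single methyl group, marks enhancers and the edges of active promoters. The receptors named here are tyrosine kinases that sit in the plasma membrane, pair up when a ligand binds, and signal through adaptor proteins to Ras and MAP kinase. In muscular organs, PDGF receptors are known from fibroblasts, pericytes and smooth muscle, Kit from interstitial cells of Cajal and mast cells, Kdr (the main VEGF receptor) from endothelium, and Fgf7 as a stromal signal to epithelium.

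The loci held 264 to 348 peaks per H3K27ac list and 306 to 399 per H3K4me1 list, with Fgfr2 as annotated, whose read-through transcript spans 29 protein-coding genes. With the Fgfr2 body of 104 kb without that transcript, they held 154 to 196 and 142 to 187. The 6 lists held 93684 to 152889 peaks each, from 40551842 to 78891920 treatment fragments against 3110985 to 3713369 IgG fragments, and covered 3.34% to 5.30% of the chromosomes with H3K27ac and 4.75% to 5.06% with H3K4me1. Calling was permissive, with a median fold enrichment over IgG of 1.44 to 1.62 per list and only 4 to 13 peaks per list at a -log10 q-value of at least 5, none of them at a promoter of these genes. The H3K27ac 1 list had the most peaks, and H3K27ac 1 was called against IgG 1, which no H3K4me1 list used, so the larger differences are also given among the lists called against IgG 2 (H3K27ac 2, H3K4me1 1 and 2) and against IgG 3 (the third list of each mark). Of 8 smooth muscle markers, 4 had H3K27ac on the promoter in at least 2 of 3 lists, with Acta2 (smooth muscle actin) marked in all 6 lists and Myh11 (smooth muscle myosin) in no H3K27ac list and 1 H3K4me1 list. Over all protein-coding genes that share was 53.9%. The counts were 7 of 8 for fibroblast and stromal markers, 3 of 6 for pericyte, 4 of 4 for interstitial cell of Cajal, 1 of 8 for epithelial, 3 of 8 for endothelial and 1 of 8 for blood and mast cell markers. H3K4me1 was on 6 of 8 smooth muscle, 7 of 8 fibroblast and stromal, 5 of 6 pericyte and 4 of 4 interstitial cell of Cajal markers. It was on 3 of 8 epithelial, 3 of 8 endothelial and 0 of 8 blood and mast cell markers, against 43.7% of all genes. Mean promoter coverage per H3K27ac list was 28.0% to 30.8% over all genes. It ran from 18.7% to 29.1% for smooth muscle, 62.7% to 74.3% for fibroblast and stroma and 4.60% to 22.9% for pericyte markers. Interstitial cell of Cajal markers had 38.6% to 62.9%, epithelial 0% to 20.6%, endothelial 9.21% to 14.5% and blood and mast cell markers 2.86% to 13.9%. The epithelial markers Epcam and Pax8, the endothelial markers Vwf and Cldn5 and the stromal marker Pdpn had no promoter peak in any of the 6 lists. Pax8 had 1 in the pooled H3K27ac list, and Pdpn was marked in both pooled lists. Other markers of these cells were marked. Of the epithelial ones, Krt8 had H3K27ac in 1 list and H3K4me1 in 3, and Cldn3 had each mark in 2. The endothelial marker Emcn had H3K27ac in 3 lists and H3K4me1 in 2. In such bulk libraries, fewer cells with a mark and less of the mark per cell cannot be told apart, and the part of other cell types in the values below was not tested.

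Promoters were taken as 1 kb on either side of each annotated start, and a gene was counted as marked when a peak of at least 2 of 3 lists overlapped such a window. H3K27ac was present at 8 of the 10 promoters (53.9% of all protein-coding genes) and H3K4me1 at 9 (43.7%). Both marks were found at 8, all but Kit and Kdr (39.1%). The H3K4me1 count depended more on the calling threshold: with peaks from a -log10 p-value of 1.3 upwards, 7 promoters had H3K27ac, 4 had H3K4me1 and 3 had both marks. At a -log10 q-value of 5 there were 0 of either mark. Both marks stood at 5 promoters with 250 bp windows and at 4 when 50% of a window had to be covered. The share of all genes at these other settings is not given, so the drops cannot be read as particular to these genes. Egfr, Fgf2, Fgf7, Fgfr1, Met and Pdgfrb were marked in all 6 lists (24.3%), while Kit was marked in none (32.8%). In the pooled lists all 10 had a promoter peak of H3K27ac (56.2%) and of H3K4me1 (56.3%). These counts describe genes chosen with earlier results known, and no test was made of them as a group.

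Coverage, the percent of a region lying under peaks, gave a finer view than presence. On promoters, every H3K27ac list was above every H3K4me1 list for 3 genes, Pdgfra, Fgfr1 and Fgfr2 (26.2% of all genes), and the reverse held for 0 (1.71%). In gene bodies outside promoters, every H3K4me1 list was above every H3K27ac list for 4 genes, Pdgfrb, Fgfr2, Egfr and Fgf2 (13.2%), against 0 for H3K27ac (4.12%). In the flanks, H3K4me1 was apart and higher for Pdgfrb alone (10.3%), and H3K27ac for 0 genes (17.6%). The lists of the marks overlapped for the other 7 promoters, 6 bodies and 9 flanks. Without its read-through transcript Fgfr2 overlapped too, which leaves 2 promoters and 3 bodies apart.

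**Figure D1:**
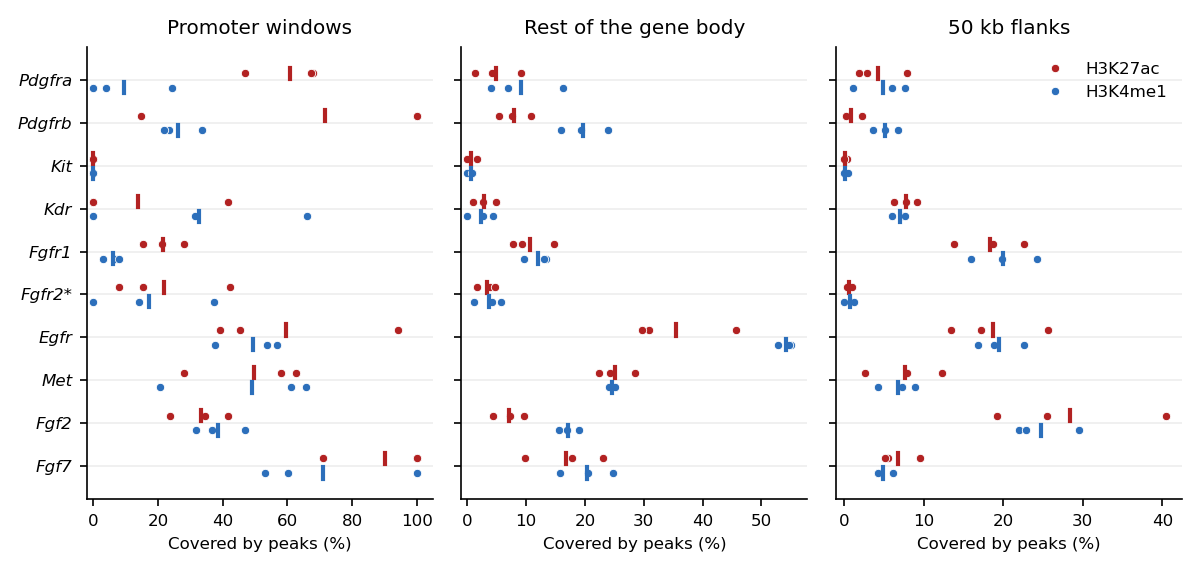
Percent of the promoter, intragenic and flanking sequence of each gene covered by peaks. Each dot is 1 replicate peak list (red H3K27ac, blue H3K4me1), vertical ticks are the means of 3 lists, and the asterisk on Fgfr2 marks the gene body without its read-through transcript. Egfr bodies stand apart at 29.7% to 45.7% for H3K27ac and 52.9% to 55.1% for H3K4me1, and Kit lies at or near 0 in each region.

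Pdgfra, the receptor for PDGF-A and PDGF-C and a common mark of mesenchymal cells, lies on the plus strand at chr5:75152292-75198215. H3K27ac covered 67.8%, 67.2% and 47.0% of its promoter windows in lists 1, 2 and 3. H3K4me1 covered 24.3%, 3.78% and 0%. The 3 H3K27ac lists lay above all 3 H3K4me1 lists, at 60.7 ± 11.9% against 9.36 ± 13.1% (mean ± SD, n = 3 lists). The difference was 53.2 percentage points among lists called against IgG 2 and 47.0 among those called against IgG 3. On the log2(percent + 1) scale it was 3.62 (SE 1.23, 95% interval 0.58 to 6.66) with a limma adjusted p of 0.105 over 14396 genes, so it did not pass. It passed without H3K4me1 list 1 (adjusted p 0.0239), with a pseudocount of 5 percentage points (0.0478) and on untransformed percentages (0.0155), and in 4 of 16 alternatives in all. The H3K27ac peaks over the first starts were broad, 7196, 7902 and 3654 bp, and their fold enrichment ranked at percentiles 95.6, 93.4 and 89.2 of their lists. The body of Pdgfra was covered less, by 4.11%, 1.25% and 9.17% with H3K27ac and 4.02%, 6.90% and 16.3% with H3K4me1, and the lists overlapped.

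Pdgfrb, the receptor for PDGF-B and a mark of pericytes and smooth muscle, lies on the plus strand at chr18:61045150-61085061. Its promoter was covered by 100%, 100% and 14.8% with H3K27ac and 23.4%, 33.5% and 21.7% with H3K4me1. Here the third H3K27ac list fell below all H3K4me1 lists, and the difference was 71.5 points among IgG 2 lists but -6.88 among IgG 3 lists. The log2 difference was 1.02 (SE 0.82, limma adjusted p 0.418). It was 1.92 without H3K27ac list 3 (adjusted p 0.0325) and 0.58 without H3K27ac list 1. In its body, H3K27ac covered 5.40%, 7.60% and 10.9%. H3K4me1 covered 23.9%, 19.4% and 15.9%, higher in every list, with a log2 difference of -1.24 (SE 0.34, adjusted p 0.106) that did not pass.

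The flanks of Pdgfrb gave the 1 difference that passed the test among these genes. H3K27ac covered 2.24%, 0.293% and 0.294% of the 50 kb on both sides and H3K4me1 6.78%, 5.14% and 3.62%. All H3K4me1 lists lay above all H3K27ac lists, at 5.18 ± 1.58% against 0.943 ± 1.13% (SD, n = 3 lists). The log2 difference was -1.78 (SE 0.46, 95% interval -2.78 to -0.78, limma adjusted p 0.0288 over 16652 genes), in a fit where 3.85% of genes were higher with H3K4me1. The difference among IgG 2 lists was -5.67 points and among IgG 3 lists -3.33. The call was lost without H3K27ac list 2 (adjusted p 0.079) or list 3 (0.0741) and without H3K4me1 list 1 (0.107) or list 2 (0.122), without the filter on coverage (0.113) and with a flank of 10 kb (0.0906) or 100 kb (0.0726). The flanks held 3 H3K27ac and 12 H3K4me1 peaks over the 3 lists of each mark, of which 2 and 5 lay in the body of another gene and 0 on another promoter. The neighbouring Csf1r, the receptor of macrophage growth factor, had no promoter peak in any of the 6 lists.

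Kit, the receptor for stem cell factor, lies at chr5:75574916-75656722 between Pdgfra and Kdr, 376.7 kb from the end of Pdgfra and 276.1 kb from Kdr. Its promoter was covered by 0% in each of the 6 lists. Its body reached 1.68%, 0% and 0% with H3K27ac and 0.851%, 0% and 0.779% with H3K4me1, and its flanks at most 0.513% in any list. Peaks at its promoter appeared only in the pooled lists, as 1 of 245 bp with H3K27ac (fold 1.56, percentile 2.15 of that list) and 1 of 392 bp with H3K4me1 (fold 1.66, percentile 9.03). Kit was thus the 1 gene of the 10 whose promoter was marked in no replicate list at this calling threshold. The 4 interstitial cell of Cajal markers (Ano1, Etv1, Gja1 and Cd34) each carried both marks in at least 2 lists (39.1% of all genes). Whether they stood for cells that carry Kit was not tested. Of the mast cell genes, Cpa3 and Mrgprb1 had no promoter peak in any list. Fcer1a was covered by 11.0% in H3K27ac list 1 and by 0% in the others.

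Kdr, on the minus strand at chr5:75932827-75978458, differed between lists of the same mark more than between marks. Its promoter was covered by 0%, 0% and 41.6% with H3K27ac and 31.4%, 0% and 66.2% with H3K4me1. Both marks were highest in list 3, and the groups overlapped. The log2 difference was -1.89 with a wide interval, -7.35 to 3.57 (SE 2.21, limma adjusted p 0.532). It was -3.74 without H3K4me1 list 2 and -0.71 without H3K4me1 list 3. Peaks of both marks lay more in the 50 kb upstream of Kdr than in its body. There H3K27ac covered 14.3%, 8.14% and 14.5% and H3K4me1 4.88%, 5.47% and 13.6%, against 0.909% to 6.38% and 1.38% to 6.44% of the body.

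**Figure D2:**
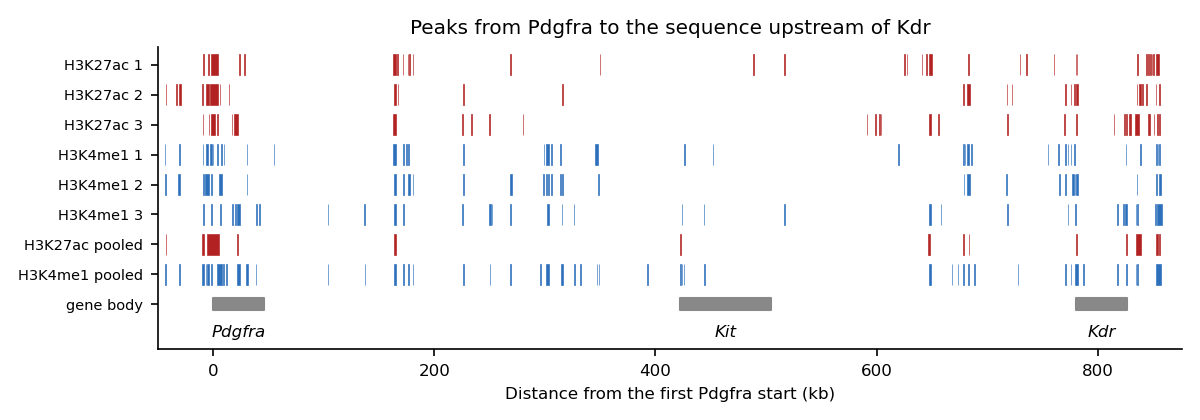
Peaks of the 6 replicate and 2 pooled lists across Pdgfra, Kit and Kdr, by distance in kb from the first Pdgfra start, with gene bodies below. Peaks gather at the Pdgfra start and upstream of Kdr, and the Kit body is covered by at most 1.66% in a replicate list.

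Between the genes, peaks were sparse. The 376.7 kb between Pdgfra and Kit was covered by 1.63%, 0.802% and 1.31% with H3K27ac and 3.15%, 3.26% and 2.46% with H3K4me1, which was higher in every list. In the 276.1 kb between Kit and Kdr the lists overlapped, at 2.85%, 2.18% and 2.00% with H3K27ac and 3.58%, 2.70% and 1.50% with H3K4me1. Between Pdgfra and Kit, a single stretch, chr5:75315473-75317327 (1855 bp), was touched by peaks of all 6 lists and of both pooled lists, with at least 2 lists of each mark along its length. It is 164.1 kb from the first Pdgfra start and beyond the 50 kb flanks, and was picked out after its values were seen.

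Fgfr1 and Fgfr2 are receptors for FGF ligands. Fgfr1 (chr8:25513654-25575718, plus strand) had promoter coverage of 27.9%, 21.1% and 15.3% with H3K27ac and 6.66%, 7.97% and 3.07% with H3K4me1. The lists did not overlap, with means of 21.5 ± 6.31% and 5.90 ± 2.54% (SD, n = 3 lists), and the differences were 13.8 points within IgG 2 and 12.3 within IgG 3. The log2 difference of 1.74 (SE 0.58, 95% interval 0.30 to 3.18) did not pass, with a limma adjusted p of 0.100. Narrowing the window to 250 bp on either side of each start raised it to 4.62 (adjusted p 0.000102), a setting under which 23.1% of all genes were higher with H3K27ac. The flanks of Fgfr1 were covered by 13.8%, 18.8% and 22.7% with H3K27ac and 19.9%, 15.9% and 24.2% with H3K4me1, and the lists overlapped. Of 26 H3K27ac and 27 H3K4me1 flanking peaks, 24 and 26 lay in the bodies of other genes, with 4 and 6 at the promoters of Letm2 or Nsd3.

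The annotated Fgfr2 (chr7:130162451-133123350, minus strand) includes a read-through transcript, Fgfr2-217, that begins at the start of Ctbp2, 2.86 Mb upstream, and spans 29 protein-coding genes. With it, promoter coverage was 28.5%, 43.1% and 61.2% with H3K27ac and 9.46%, 0% and 25.0% with H3K4me1, apart in every list. Its log2 difference was 2.74 (SE 1.29, limma adjusted p 0.189), with 1.39 when H3K4me1 list 2 was left out and 3.74 when H3K4me1 list 3 was. Without that transcript the body is 104 kb, the values were 7.98%, 15.2% and 42.1% against 14.1%, 0% and 37.3%, the lists overlapped, and the difference was 1.15 (SE 1.50, adjusted p 0.577). The H3K4me1 excess in the annotated body, 4.87 ± 0.876% against 8.37 ± 0.68% (SD, n = 3 lists), likewise became 3.42 ± 1.60% against 3.70 ± 2.41%. Both separations of Fgfr2 named above thus rested on sequence outside its usual gene body.

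The promoters of both FGF receptors were rich in GC, and the 300 bases before 1 start of each are shown. The start taken was the one with most lists overlapping, of 4 candidates for Fgfr1 and 1 for Fgfr2. For Fgfr1 the number of lists on the window thus partly reflects that choice. Here and for the other promoters, capitals mark a GC box (GGGCGG, bound by Sp1 family factors) or a CCAAT box (CCAAT, bound by NF-Y) on either strand, and each FGF receptor window held a GC box. In the window of Fgfr1, plus strand of chr8:25519537-25519836, H3K27ac covered 54.7%, 49.3% and 36.3% and H3K4me1 covered none of it in any list. In that of Fgfr2, minus strand of chr7:130266264-130266563, H3K27ac list 2 covered 45.0% and H3K4me1 list 1 covered 48.7%, and the other lists none. The GC content of the windows was 68.3% and 71.7%, against a median of 54.3% over 54379 windows before protein-coding starts.
Fgfr1: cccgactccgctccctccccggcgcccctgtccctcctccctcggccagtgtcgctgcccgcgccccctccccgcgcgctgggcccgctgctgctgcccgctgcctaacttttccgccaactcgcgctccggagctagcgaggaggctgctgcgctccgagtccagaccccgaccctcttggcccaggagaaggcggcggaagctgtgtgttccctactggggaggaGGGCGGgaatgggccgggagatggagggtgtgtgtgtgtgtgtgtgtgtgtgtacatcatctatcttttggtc
Fgfr2: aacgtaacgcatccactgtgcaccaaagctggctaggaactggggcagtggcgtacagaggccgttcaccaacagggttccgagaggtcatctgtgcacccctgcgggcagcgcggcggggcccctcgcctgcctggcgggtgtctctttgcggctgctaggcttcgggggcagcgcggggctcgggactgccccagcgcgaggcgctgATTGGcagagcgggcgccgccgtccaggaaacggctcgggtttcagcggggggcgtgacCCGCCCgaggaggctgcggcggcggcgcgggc

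Egfr, the receptor for EGF, TGF-alpha and amphiregulin, lies on the plus strand at chr11:16752203-16918158 and had the most coverage of its body in every list among these genes. H3K27ac covered 45.7%, 30.9% and 29.7% of it and H3K4me1 52.9%, 55.1% and 54.6%. These values lay between percentiles 94.3 and 96.5 of all genes for H3K27ac and between 97.6 and 97.9 for H3K4me1. Every H3K4me1 list was above every H3K27ac list, at 54.2 ± 1.16% against 35.4 ± 8.88% (SD, n = 3 lists), and the difference was -23.1 points within IgG 2 and -24.9 within IgG 3. The log2 difference was -0.63 (SE 0.20, 95% interval -1.12 to -0.13, limma adjusted p 0.147 over 12362 genes). It passed without H3K27ac list 1 (-0.82, adjusted p 0.0389) and with the IgG library as a block (-0.82, adjusted p 0.0497). The Egfr promoter was covered by 94.2%, 39.1% and 45.2% with H3K27ac and 37.6%, 53.7% and 56.7% with H3K4me1, which overlapped. Its promoter difference was 10.2 points over all lists but -6.51 within IgG 2 and -11.4 within IgG 3. In the pooled lists the longest Egfr peak was 43298 bp with H3K4me1 and 11702 bp with H3K27ac.

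Met, the receptor for hepatocyte growth factor, lies on the plus strand at chr6:17463800-17573980, with 4 promoter windows. Its promoters were covered by 62.7%, 57.9% and 28.1% with H3K27ac and 65.8%, 61.0% and 20.7% with H3K4me1. Both marks were lowest in list 3. Its body was covered by 28.5%, 24.3% and 22.4% with H3K27ac and 24.7%, 24.0% and 25.1% with H3K4me1, with a log2 difference of 0.02 (95% interval -0.45 to 0.49, limma adjusted p 0.970). All flanking peaks of Met, 34 with H3K27ac and 21 with H3K4me1, lay outside the bodies of other genes.

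**Figure D3:**
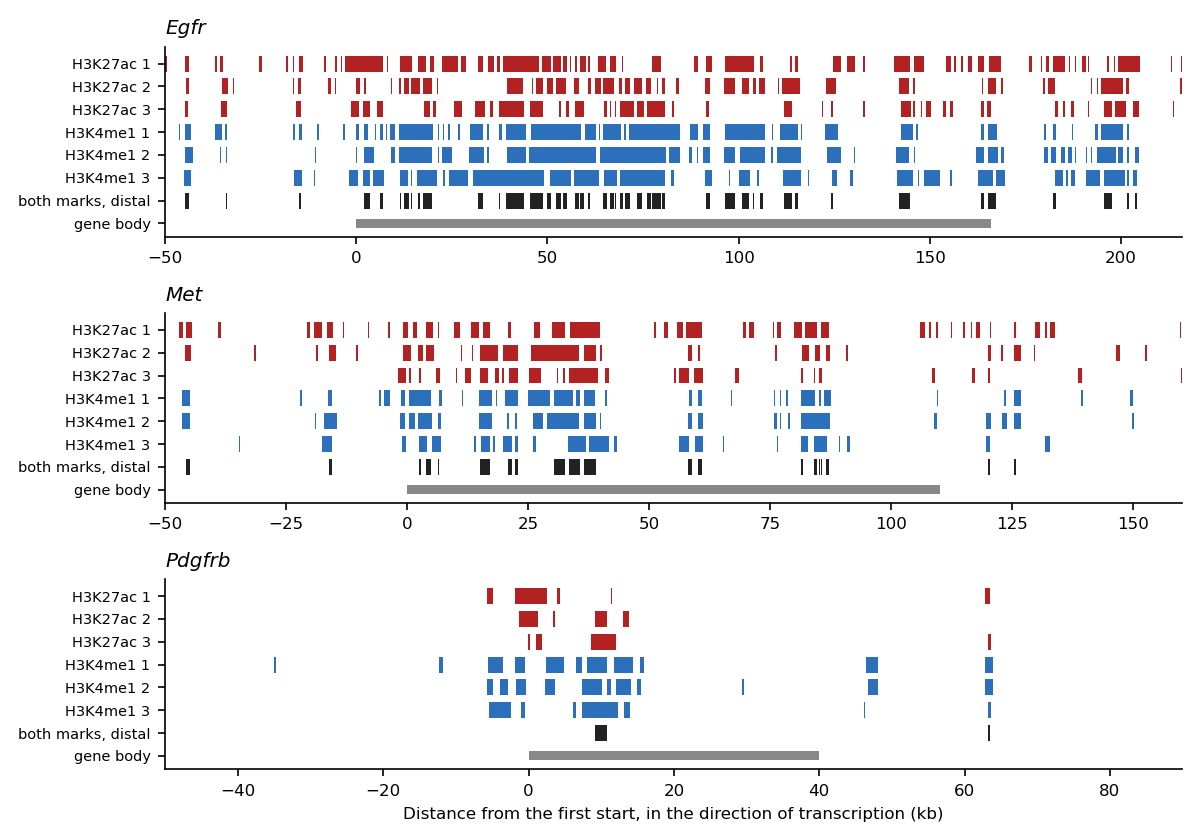
Peaks of the 6 replicate lists (red H3K27ac, blue H3K4me1) across Egfr, Met and Pdgfrb, by distance in kb from the first start, with double-marked distal regions in black and the gene body in grey. Peaks run along the Egfr and Met bodies, with 50 and 21 double-marked regions, while Pdgfrb has 3.

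The window before the first start of Egfr (plus strand, chr11:16751903-16752202) is shown for the locus with the most sequence under both marks. H3K27ac covered 100%, 52.0% and 100% of it and H3K4me1 0%, 52.0% and 100%. It holds 1 GC box and 1 CCAAT box.
Egfr: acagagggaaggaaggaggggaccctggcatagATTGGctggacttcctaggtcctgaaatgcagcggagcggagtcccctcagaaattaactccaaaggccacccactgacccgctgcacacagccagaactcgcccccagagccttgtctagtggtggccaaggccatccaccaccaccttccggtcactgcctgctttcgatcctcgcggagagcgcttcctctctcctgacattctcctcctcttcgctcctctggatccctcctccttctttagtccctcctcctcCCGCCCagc

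Fgf2 (basic FGF, chr3:37348346-37410108, plus strand) lacks the classical secretion signal of most FGFs, and acts on FGF receptors of many mesenchymal cells. Its promoter was covered by 23.6%, 41.7% and 34.6% with H3K27ac and 46.9%, 31.8% and 36.8% with H3K4me1, and the lists overlapped. In its body, H3K27ac covered 9.56%, 7.29% and 4.39%, and H3K4me1 18.9%, 15.6% and 16.9%. Every H3K4me1 list was above every H3K27ac list, at 17.1 ± 1.68% against 7.08 ± 2.59% (SD, n = 3 lists). The log2 difference was -1.22 (SE 0.34, 95% interval -2.05 to -0.39, limma adjusted p 0.110), with -9.96 points within IgG 2 and -12.5 within IgG 3. Its flanks had high coverage for this family, with 40.4%, 25.5% and 19.2% under H3K27ac and 29.5%, 21.9% and 22.9% under H3K4me1, between percentiles 97.2 and 99.8 of all genes. Of 49 H3K27ac and 38 H3K4me1 flanking peaks, 47 and 37 lay in the bodies of other genes, among them Spata5, Nudt6, Bbs12 and Cetn4, so that flank cannot be assigned to Fgf2. The flank difference was 3.62 points over all lists but -0.215 within IgG 2 and -3.67 within IgG 3.

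Fgf7 (keratinocyte growth factor, chr2:126034658-126091185, plus strand), which acts on an epithelial form of Fgfr2, had the highest mean promoter coverage of these genes. H3K27ac covered 71.0%, 100% and 100% and H3K4me1 53.1%, 60.3% and 100%, and both marks filled the window in list 3. The log2 difference was 0.38 (SE 0.28, limma adjusted p 0.385), with 43.3 points within IgG 2 and 0 within IgG 3. Its body was covered by 23.0%, 9.72% and 17.8% with H3K27ac and 20.6%, 15.8% and 24.8% with H3K4me1. All 18 H3K27ac and 6 H3K4me1 flanking peaks lay in the body of another gene, Fam227b, which also overlaps Fgf7.

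The ligand windows were poorer in GC than the receptor windows printed, at 49.7% for Fgf2 and 42.3% for Fgf7, and held CCAAT boxes but no GC box. The Fgf2 window (plus strand, chr3:37348046-37348345) was covered by 0%, 100% and 53.0% with H3K27ac and 0%, 46.7% and 53.0% with H3K4me1. The Fgf7 window (plus strand, chr2:126034358-126034657) was covered by 100% in all H3K27ac lists and by 0%, 0% and 100% with H3K4me1.
Fgf2: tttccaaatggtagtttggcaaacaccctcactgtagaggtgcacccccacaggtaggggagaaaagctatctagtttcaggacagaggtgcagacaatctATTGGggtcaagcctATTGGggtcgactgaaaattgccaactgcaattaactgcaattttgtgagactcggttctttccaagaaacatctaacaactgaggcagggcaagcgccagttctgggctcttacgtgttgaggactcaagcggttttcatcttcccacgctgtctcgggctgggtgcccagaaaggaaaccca
Fgf7: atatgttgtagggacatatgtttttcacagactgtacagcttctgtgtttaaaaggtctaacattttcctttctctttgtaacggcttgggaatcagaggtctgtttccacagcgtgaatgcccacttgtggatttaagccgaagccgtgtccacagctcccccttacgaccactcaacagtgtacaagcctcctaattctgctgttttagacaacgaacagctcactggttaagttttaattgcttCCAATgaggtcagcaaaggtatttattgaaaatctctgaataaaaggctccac

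Where the marks sat relative to the start differed between the genes. At the first start of the gene, peaks of all 3 H3K27ac lists were present for Pdgfra, Pdgfrb, Egfr and Fgf7. The same held for the start in the second window of Met. For Pdgfra and Pdgfrb, 0 of 3 H3K4me1 lists had a peak on the start, but 2 and 3 had one 1 kb upstream. The difference at Pdgfrb was within reach of the test when the window was 250 bp on either side, where the log2 difference was 6.34 (limma adjusted p 6.6e-05), a setting that changed the call. Fgfr1 had 1 H3K27ac list on the first start of its second window, and 3 lists 1 kb downstream and on the last start of that window (chr8, base 25519837). Fgf2 had 2 on the start and 3 at 1 kb downstream.

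**Figure D4:**
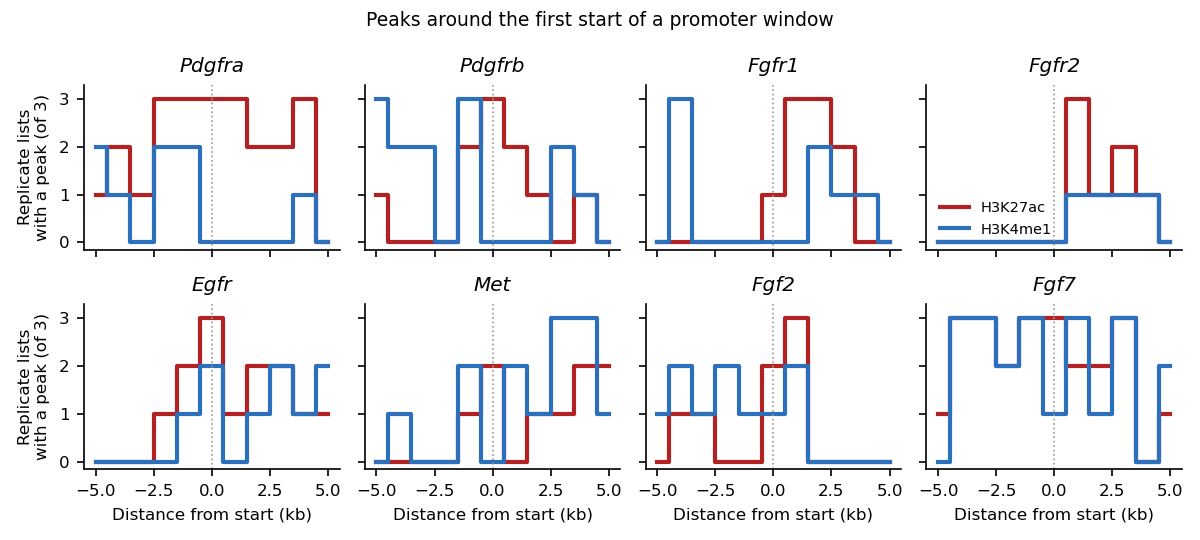
Number of replicate lists, of 3 per mark, with a peak at 1 kb steps from 5 kb before to 5 kb after a start, for 8 genes (red H3K27ac, blue H3K4me1). H3K27ac reaches 3 lists on the first start of Pdgfra, Pdgfrb, Egfr and Fgf7, where H3K4me1 reaches 0, 0, 2 and 1.

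Sequence outside the promoters of all protein-coding genes that lay under peaks of at least 2 of 3 lists of each mark was counted as double-marked. With the shorter Fgfr2 body the loci held 104 such regions of 43641 in the genome, 73 in gene bodies and 31 in flanks, of which 35 were touched by all 6 lists. Their length ran from 5 to 4689 bp with a median of 622 bp, and no minimum length was set. Egfr held 50 and Met 21, together 68.3% of them. Per 100 kb of locus, Egfr had 18.8 regions, at percentile 99.9 of all genes, and Met 9.99, at percentile 97.9, against a median of 0.91. Fgfr1 followed with 10 regions (6.17 per 100 kb), then Kdr with 6 (4.12), Fgf2 with 6 (3.71), Fgf7 with 5 (3.19), Pdgfrb with 3 (2.14), Pdgfra with 2 (1.37), Fgfr2 with 1 (0.491) and Kit with 0. The annotated Fgfr2 body, read-through included, held 71, which brings the count to 174. That count fell to 96 without H3K27ac list 1 and to 100 without H3K27ac list 2.

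**Figure D5:**
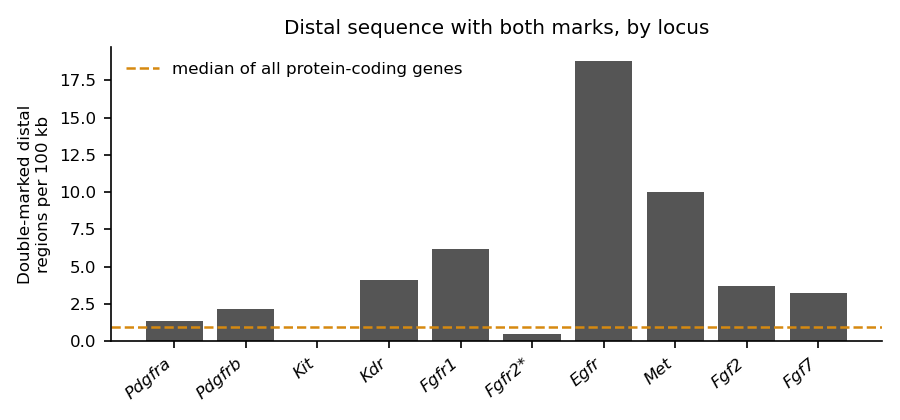
Double-marked distal regions per 100 kb of each locus (bars), with the asterisk on Fgfr2 as in the coverage plot and the dashed line at 0.91, the median of all protein-coding genes. Egfr at 18.8 and Met at 9.99 stand above the other 8 genes.

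The 3 longest double-marked regions lay in Egfr and beside Fgf2. The first, chr11:16791290-16795978 (4689 bp), is centred 41.43 kb downstream of the first Egfr start and overlaps an Egfr exon, with fold enrichments of 1.97, 1.91 and 1.91 for H3K27ac and 2.18, 2.13 and 2.10 for H3K4me1. The second, chr3:37432335-37436168 (3834 bp), lies in Spata5, downstream of Fgf2, and overlaps a Spata5 exon, with lower fold enrichments of 1.55, 1.51 and 1.67 for H3K27ac and 1.60, 1.57 and 1.68 for H3K4me1. The third, chr11:16797643-16801062 (3420 bp), is centred 47.15 kb from the first Egfr start and overlaps no exon, at 1.97, 1.73 and 1.94 and at 2.02, 2.04 and 2.10. Their central 300 bases are printed on the plus strand, at chr11:16793484-16793783, chr3:37434102-37434401 and chr11:16799203-16799502, with capitals for CATTCC on either strand, the core bound by TEAD factors, the DNA-binding partners of the co-activator YAP. The 2 Egfr windows each held 1 such match, and the window beside Fgf2 held none.
Egfr region 1: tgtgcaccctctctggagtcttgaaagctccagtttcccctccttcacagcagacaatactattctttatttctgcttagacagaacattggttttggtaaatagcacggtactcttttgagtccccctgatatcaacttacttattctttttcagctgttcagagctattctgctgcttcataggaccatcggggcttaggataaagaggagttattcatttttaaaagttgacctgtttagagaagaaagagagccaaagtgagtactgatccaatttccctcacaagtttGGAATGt
Fgf2 region 2: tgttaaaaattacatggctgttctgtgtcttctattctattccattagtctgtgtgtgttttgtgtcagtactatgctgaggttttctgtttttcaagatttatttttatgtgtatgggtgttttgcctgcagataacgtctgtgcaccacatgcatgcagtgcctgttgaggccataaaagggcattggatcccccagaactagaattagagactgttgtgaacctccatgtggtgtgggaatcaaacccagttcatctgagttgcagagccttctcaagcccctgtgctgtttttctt
Egfr region 3: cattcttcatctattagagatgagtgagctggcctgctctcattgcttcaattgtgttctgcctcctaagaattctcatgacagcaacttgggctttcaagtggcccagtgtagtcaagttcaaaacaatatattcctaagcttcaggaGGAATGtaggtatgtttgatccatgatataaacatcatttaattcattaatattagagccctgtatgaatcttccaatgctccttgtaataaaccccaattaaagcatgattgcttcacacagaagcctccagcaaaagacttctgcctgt

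Motif matches were read as letters only, on both strands. Of the 5 promoter windows printed, 3 held a GC box (GGGCGG, 41.8% of 54379 windows before protein-coding starts) and 4 a CCAAT box (CCAAT, 36.9%). CATTCC was in 1 (13.4%), and TATAAA (12.5%), TGANTCA (the AP-1 site, 6.75%), TGACGTCA (the CRE, 1.93%) and the CArG box of serum response factor (1.42%) in 0. Of the 104 distal windows, CATTCC was in 19 (18.3%, against 16.8% of all 43641), CCAAT in 46 (44.2%, against 34.6%), TGANTCA in 12 (11.5%, against 13.3%), TATAAA in 22 (21.2%, against 26.5%), GGGCGG in 5 (4.81%, against 3.19%), TGACGTCA in 2 (1.92%, against 0.225%) and the CArG box in 2 (1.92%, against 1.90%). No test was made of these shares.

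Over all comparisons, 9 of the 10 genes passed the filter of 1% mean coverage in each region, Kit being left out, and limma called 0 of 9 in promoters, 0 of 9 in gene bodies and 1 of 9 in flanks. At an unadjusted p under 0.05 there were 2, 3 and 1, against 4818 of 14396, 2742 of 12362 and 4925 of 16652 of all genes tested. The background was 15.4% of genes higher with H3K27ac and 0.854% with H3K4me1 in promoters, 1.29% and 2.78% in bodies and 7.77% and 3.85% in flanks. The median log2 difference (H3K27ac minus H3K4me1) of the 9 genes was 0.38 in promoters, where that of all genes tested was 1.35. In bodies it was -0.63 against -0.35, and in flanks -0.09 against 0.11. Scaling to the share of the genome each list covered moved the median of all genes to 1.54, -0.13 and 0.34. Under a stricter peak filter (-log10 p-value from 1.3 upwards), the promoters of Pdgfra (limma adjusted p 0.041), Fgfr1 (0.0154) and Fgfr2 as annotated (0.0141) and the flanks of Fgf2 (0.0107) passed as higher with H3K27ac, and the body of Egfr (0.03) as higher with H3K4me1. Of all genes tested under that filter, 35.3% passed as higher with H3K27ac in promoters, 36.3% in flanks, and 6.47% as higher with H3K4me1 in bodies, so the promoter count was near the background. The flanks of Pdgfrb fell below the filter of 1% mean coverage at that setting and have no value there. Relative to the median of all genes, Pdgfra (2.27), Fgfr2 as annotated (1.39) and Fgfr1 (0.39) were above it in promoters and the other 6 below.

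The other genes of these pathways were read from 3 lists. Among adaptors and feedback regulators, which carry the receptor signal to Ras and MAP kinase or curb it, all 26 of 26 had H3K27ac on the promoter in at least 2 lists (53.9% of all genes) and 13 had both marks (39.1%), with mean promoter coverage of 61.2% to 67.4% per H3K27ac list and 13.6% to 22.3% per H3K4me1 list. In promoters limma called 11 of 26 higher with H3K27ac (15.4% of all genes) and 0 with H3K4me1 (0.854%). In bodies 1 of 24 was higher with H3K27ac (1.29% of all genes) and 3 with H3K4me1 (2.78%). In flanks 5 of 25 were higher with H3K27ac (7.77%) and 2 with H3K4me1 (3.85%). Frs2, the docking protein of FGF receptors, had 100% coverage in every H3K27ac list and 51.7%, 44.9% and 12.9% with H3K4me1 (log2 difference 1.65, adjusted p 0.0951), and in its body H3K4me1 was higher by the test (-1.41, adjusted p 0.0363). Nrp1, a VEGF and PDGF co-receptor, showed the same order, 100%, 100% and 65.6% against 51.0%, 5.85% and 3.45% on the promoter (adjusted p 0.107) and -1.09 in the body (adjusted p 0.0254). Errfi1, an inhibitor of Egfr, was covered by 100% in each H3K27ac list and 100%, 75.0% and 49.2% with H3K4me1. Grb2, an adaptor of activated receptors, was marked in all 6 lists too.

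Of 15 other receptors, 9 had H3K27ac (53.9% of all genes), 5 H3K4me1 (43.7%) and 4 both (39.1%). The collagen receptors Ddr1 and Ddr2 were marked in all 6 lists, with 64.8%, 66.6% and 66.0% and then 52.7% in each list under H3K27ac. Flt1 and Flt4, VEGF receptors, Fgfr4 and Erbb4 had no promoter peak in any of the 6. In promoters 1 of 11 tested was higher with H3K27ac (15.4% of all genes) and 0 with H3K4me1 (0.854%). In bodies 0 of 8 were called either way (1.29% and 2.78%). In flanks 1 of 13 was higher with H3K27ac (7.77%) and 0 with H3K4me1 (3.85%).

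Of 26 ligands, 16 had H3K27ac (53.9% of all genes), 19 H3K4me1 (43.7%) and 14 both (39.1%). Pdgfc covered 25.6%, 100% and 100% with H3K27ac against 37.6%, 45.9% and 41.5%, and Pdgfd 100%, 100% and 84.3% against 38.0%, 64.2% and 15.0%, so a ligand of each PDGF receptor carried both marks. Vegfa, the ligand of Kdr, had 82.0%, 79.2% and 82.6% with H3K27ac and 2.85%, 2.46% and 23.4% with H3K4me1 (log2 difference 3.58, limma adjusted p 0.0475), and was higher with H3K27ac by the test. Nrg1 was the other way round in values, at 18.5%, 35.8% and 21.9% against 50.0%, 59.1% and 30.9% (adjusted p 0.245). Fgf17 and Fgf21 had no promoter peak in any of the 6 lists. Of the 23 ligands tested in promoters, 1 was higher with H3K27ac (15.4% of all genes) and 1 with H3K4me1 (0.854%). In bodies 0 of 21 were higher with H3K27ac (1.29%) and 1 with H3K4me1 (2.78%). In flanks 1 of 24 was higher with H3K27ac (7.77%) and 0 with H3K4me1 (3.85%).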

How the data were processed

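Chromatin was profiled with H3K27ac, H3K4me1 and IgG antibodies in 3 libraries each. Per the labels, reads were handled with cutadapt, Bowtie2 and MACS2 on GRCm38.p5. Per the file headers, the authors called broad peaks with MACS2 2.2.7.1 from paired-end fragments, with p-value limits of 0.05 (strong regions) and 0.1 (weak regions), the larger library being scaled down. The deposited peak tables hold pileup (coverage signal), -log10 p-value, -log10 q-value and a fold enrichment ratio, (pileup + 1)/(background + 1). The headers say that q was not calculated, although that column holds values, which were used for the replicate lists only. Per the file headers, the authors used IgG 1 for H3K27ac 1, IgG 2 for H3K27ac 2 and H3K4me1 1 and 2, IgG 3 for the third list of each mark, and all 3 for the pooled lists.

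Peak positions were intersected with GENCODE release 21 in Python 3.11.15 (pandas 2.3.3, numpy 2.4.6). Promoters were 1 kb either side of protein-coding starts, intragenic the rest of the body and flanking the 50 kb beyond. Percent covered was tested with limma 3.58.1 in R 4.3.3 (trended moderated test on log2(percent + 1), all genes with a mean of at least 1%, Benjamini-Hochberg threshold 0.05, 3 lists against 3), and the fit was tested on simulated data. A permutation of 3 against 3 lists cannot go below 0.1. The members and lists were chosen with earlier results of these data known. The genes named were the 10 members and, from each of 3 pathway lists, up to 6 genes in alphabetical order with a promoter peak in all 6 lists or in none. Some cell type markers and neighbouring genes are named as well, outside that rule. Sequences are GRCm38, 300 bases before a start with most lists overlapping and no exon, or at the centre of the 3 longest double-marked regions. Those of some members are not reported here, nor are some genes that the naming rule gives. Peaks carry no counts, so no counting interval was given.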

Additional observations from a re-analysis of the deposited data

How the results depend on the processing

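Alternatives were the peak cutoff, window and flank sizes, the filter, the pseudocount, scaling, blocks, Fgfr2 without Fgfr2-217 (added after seeing the data) and leaving out each list. H3K27ac promoters of 8 genes, H3K4me1 of 9 and both of 8 fell to 0, 0 and 0 at a -log10 q-value of at least 5. H3K4me1 fell to 4 and both to 3 at a -log10 p-value of at least 1.3, both to 5 with 250 bp windows, and H3K4me1 to 4 and both to 4 when 50% of a window had to be covered. Without 1 list the 3 counts ran from 8 to 8, 6 to 8 and 6 to 8. The 174 double-marked regions became 65 with all 3 replicates required, 22 at the p cutoff, 104 without Fgfr2-217 and 96 to 155 without 1 list. Mean locus coverage of 11.9% for H3K27ac became 4.15% at the p cutoff and 10.7% to 12.6% without 1 list. That of 13.9% for H3K4me1 became 6.03%, 17.4% with 10 kb flanks, 12.7% with 100 kb, 12.8% scaled, and 13.6% to 14.2% without 1 list.

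Of all genes, limma called 2341 in promoters, 503 in bodies and 1935 in flanks. In promoters the count was 1238 with an IgG library block, 4207 untransformed, 1248 without a filter, 3987 at the p cutoff, 859 with 3 kb windows and 1388 to 4029 without 1 list. In bodies it was 268 untransformed, 295 scaled (153 higher with H3K27ac and 142 with H3K4me1, against 159 and 344), 1013 at the p cutoff (557 and 456) and 146 to 551 without 1 list, where leaving out an H3K4me1 list turned the split (107 and 47 without list 1, 101 and 45 without list 2, 167 and 137 without list 3) and leaving out H3K27ac list 3 gave 139 and 153. In flanks it was 4541 with the IgG block (2470 and 2071, against 1294 and 641), 695 without a filter, 3157 scaled (2764 and 393), 4564 at the p cutoff (4024 and 540), 17 with 10 kb flanks, 3028 with 100 kb (1627 and 1401) and 420 to 1724 without 1 list.

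Replicate numbers did not pair the lists. Correlations of same-numbered deviations were -0.00202, 0.238 and 0.341 in promoters, -0.0129, 0.272 and 0.404 in bodies and -0.0156, 0.334 and 0.436 in flanks. Lists 2 and 3, but not list 1, correlated best with their own number. H3K27ac 2 also correlated with H3K4me1 1, called against the same IgG 2, at 0.223 in promoters, 0.252 in bodies and 0.261 in flanks. Lists 2 of both marks shared IgG 2 and lists 3 shared IgG 3, so number and IgG library cannot be told apart there. With the replicate block, counts were 1324 in promoters, 110 in bodies (76 and 34) and 3999 in flanks, and no call on the 10 genes changed. For 10 differences of single genes refitted under these alternatives (promoters of Pdgfra, Pdgfrb, Fgfr1, Fgfr2 and Kdr, bodies of Pdgfra, Pdgfrb, Fgf2 and Egfr, flanks of Pdgfrb), no fitted difference changed sign, with 131 values on the same side of the threshold, 12 newly past it and 7 no longer past it. Within 1 IgG library the unfitted difference did turn for the promoters of Pdgfrb, Egfr, Met and Fgf2, the bodies of Kit and Met and the flanks of Pdgfra, Kdr, Fgfr1, Met and Fgf2. Weak peaks and 3 lists per mark limit what can be seen, and the cause of these shifts was not tested.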
